A study of Mus musculus with 6 samples.

Results

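The genes described here encode the proteasome, its regulators and the factors that assemble it, measured in the livers of LERKO and CT mice. Members were all genes on the array whose symbol starts with Psma, Psmb, Psmc, Psmd, Psme, Psmf or Psmg followed by a digit and that had a probe set of their own, meaning a probe set that the array's annotation pairs with a single gene. There were 49 such genes of 18820 genes with a probe set of their own, and 43 of them reached a signal of 100 in at least 1 of the 6 arrays. Several genes had more than 1 probe set of their own, and these genes are given by the probe set of highest mean signal. The study asked what the loss of estrogen receptor alpha (ERα) in the liver does to the liver transcriptome. LERKO mice carried floxed ERα alleles and a cre recombinase driven by the albumin promoter (Alb-cre/ERα fl/fl), CT mice carried the same floxed alleles without cre (ERα fl/fl), and all were females on a C57BL/6J background. RNA of 3 LERKO livers and 3 CT livers was hybridized to 1 Affymetrix gene array each, and levels are given throughout as RMA signals on the log2 scale, normalized between arrays by the authors. Values of a group are in the order of replicates 1 to 3. The albumin promoter is active in hepatocytes and not in the other cells of the liver, so ERα alleles in those cells are not targeted, and effects of cre and of the missing receptor cannot be told apart. The age of these mice and whether they were fasted are not given in the sources used here.

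The proteasome is the large protease that degrades proteins tagged with ubiquitin. Its core is a barrel of alpha rings, which form the gate, and beta rings, of which Psmb5, Psmb6 and Psmb7 carry the proteolytic sites. A regulatory particle caps the barrel. Its base holds the ATPases Psmc1 to Psmc6, which unfold the substrate, and its lid removes the ubiquitin chain. In cells exposed to interferon gamma, Psmb8, Psmb9 and Psmb10 replace the 3 proteolytic subunits, and the resulting immunoproteasome cuts peptides for presentation on MHC class I molecules. The liver is mostly hepatocytes, which carry mainly the constitutive form, while leukocytes are rich in the immunoproteasome.

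Proteasome genes differed little between LERKO and CT livers. None of the 43 genes was called, that is, passed a p of 0.05 from limma after Benjamini-Hochberg adjustment over all probe sets tested, as none was among the 10633 probe sets tested (0% called), and 0 of the 43 had an unadjusted p under 0.05. Over all probe sets, 6.98% passed that unadjusted threshold. Of the 43 genes, 24 were higher and 19 lower in LERKO liver, with a median log2 fold change of 0.02, against −0.0099 over all probe sets, of which 46.5% were higher. Single log2 fold changes lay between −0.21 and 0.17, that is, between 0.866 and 1.13 times the CT level. For 20 of the 43 genes the 95% confidence interval of the fold change lay within 1.2-fold in either direction, and for 40 it lay within 1.5-fold. With 3 mice against 3, an exact two-sided permutation test cannot give a p below 0.1, and the number of arrays limits the precision.

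**Figure D1:**
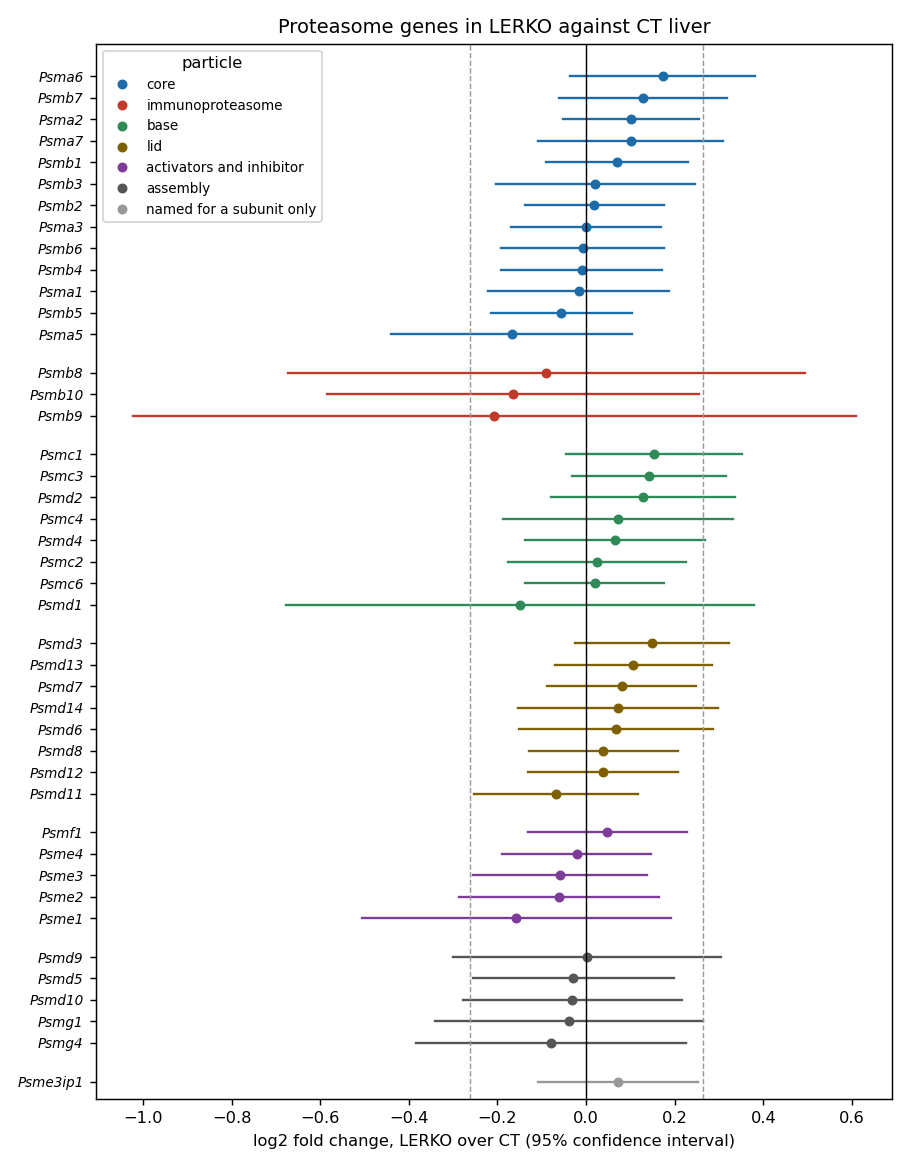
Log2 fold change (LERKO over CT, horizontal axis) of the 43 proteasome genes tested, grouped by particle. Points are estimates from limma on 3 LERKO and 3 CT mice, lines their 95% confidence intervals, and dashed lines mark 1.2-fold in either direction. All intervals cross 0, and the intervals of Psmb8, Psmb9 and Psmd1 are the widest of the 43.

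With 1 array left out, the median log2 fold change of the 43 genes lay between 0.0059 and 0.048. Esr1, which encodes ERα, was at 6.75, 7.06 and 6.77 in LERKO livers and at 8.45, 8.78 and 8.29 in CT livers on the log2 scale, so each array matched its label (log2 fold change −1.65, SE 0.15, adjusted p = 0.149 in limma). Albumin and 8 other hepatocyte markers were measured, with a median log2 fold change of −0.0071. Each array had between 9452 and 9865 probe sets at a signal of 100, and arrays correlated at 0.967 to 0.989. Genes of other organs were high in a pair of arrays. Over all markers with a probe set, those below the filter included, the 5 pancreas markers lay on average 3.09 log2 units above their 6-mouse mean in CT replicate 3 and the 8 muscle markers 1.85 above. In LERKO replicate 2 the 8 adrenal markers lay 4.05 above and the muscle markers 0.37 above. Without CT replicate 3 and LERKO replicate 2, 0 proteasome genes were called and the median log2 fold change of the 43 genes was 0.02.

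The core particle was level between the groups. Of 13 core genes, 7 were higher and 6 lower in LERKO liver, with a median log2 fold change of 0.02 (−0.025 without CT replicate 2 and 0.046 without CT replicate 1). With median centring or cyclic loess of the arrays, 10 of the 13 were higher. Averaged over the 13 genes, the livers lay 0.02, −0.0043 and 0.02 log2 units from the 6-mouse mean in LERKO mice and 0.01, −0.05 and −0.0034 in CT mice. All mice thus lay close to the common mean, with CT replicate 2 the lowest.

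The subunits that carry the constitutive proteolytic sites hardly differed. Psmb5, the chymotrypsin-like subunit, was at 11.57, 11.50 and 11.49 in LERKO livers and at 11.58, 11.52 and 11.62 in CT livers. Psmb6, the caspase-like subunit, was at 9.52, 9.48 and 9.62 in LERKO livers and at 9.60, 9.45 and 9.58 in CT livers. The groups overlapped for both, with log2 fold changes of −0.06 (SE 0.07) and −0.0080 (SE 0.08). Psmb7, the trypsin-like subunit, was at 9.41, 9.20 and 9.39 in LERKO livers and at 9.21, 9.19 and 9.22 in CT livers. For Psmb7, LERKO replicates 1 and 3 lay above every CT mouse and LERKO replicate 2 lay among them, with a log2 fold change of 0.13 (SE 0.08, adjusted p = 0.765 in limma, and no lower than 0.480 in any alternative tried).

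Among the alpha subunits, Psma6 had the largest log2 fold change upward of the 43 genes, 0.17 (SE 0.09, adjusted p = 0.735 in limma). Psma6 was at 9.49, 9.50 and 9.62 in LERKO livers and at 9.29, 9.51 and 9.30 in CT livers, so CT replicate 2 lay among the LERKO mice. Psma2 was at 8.25, 8.23 and 8.31 in LERKO livers and at 8.12, 8.19 and 8.18 in CT livers. All LERKO mice lay above all CT mice for Psma2, with a log2 fold change of 0.10 (SE 0.06, adjusted p = 0.773 in limma). Psma5 was at 7.40, 7.42 and 7.36 in LERKO livers and at 7.72, 7.32 and 7.64 in CT livers. Its log2 fold change was −0.17 (SE 0.11, adjusted p = 0.785 in limma), and CT replicate 2 lay below every LERKO mouse. A second probe set of Psma5 ran the other way, at 0.08, so the direction for this gene depended on the probe set. For Psma3, with 3 probe sets of its own, the log2 fold changes lay between −0.0028 and −0.00011. Psma4, the remaining alpha subunit, was measured only by a probe set that it shares with another transcript, at 8.27, 8.24 and 8.17 in LERKO livers and at 8.33, 8.25 and 8.16 in CT livers.

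The immunoproteasome subunits differed between individual mice more than between the groups. Psmb8, which takes the place of Psmb5, was at 7.23, 7.70 and 7.25 in LERKO livers and at 7.99, 7.35 and 7.11 in CT livers. Psmb9, which takes the place of Psmb6, was at 6.62, 7.39 and 7.22 in LERKO livers and at 7.99, 7.05 and 6.81 in CT livers. Psmb10, which takes the place of Psmb7, was at 7.80, 8.21 and 7.87 in LERKO livers and at 8.46, 7.95 and 7.96 in CT livers. For all 3 genes CT replicate 1 was the highest of the 6 mice and LERKO replicate 2 the second highest. From the lowest mouse to the highest, the signal of Psmb9 spanned 2.59-fold, that of Psmb8 1.84-fold and that of Psmb10 1.58-fold. The 3 counterparts Psmb6, Psmb5 and Psmb7 spanned 1.12-fold, 1.09-fold and 1.17-fold.

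The group comparison of these subunits therefore had wide intervals. Psmb9 had the largest log2 fold change downward of the 43 genes, −0.21 (SE 0.34), and its fold change of 0.866 had a 95% confidence interval of 0.492 to 1.53 (adjusted p = 0.909 in limma). For Psmb10 the log2 fold change was −0.16 (SE 0.18, adjusted p = 0.846 in limma). For Psmb8 it was −0.09 (SE 0.24, adjusted p = 0.951 in limma). Without CT replicate 1 the log2 fold changes turned to 0.15 for Psmb9, 0.0033 for Psmb10 and 0.16 for Psmb8. Without LERKO replicate 1 that of Psmb9 was 0.02. Without CT replicate 3 and LERKO replicate 2, the arrays with genes of other organs, they were −0.60, −0.37 and −0.43 for Psmb9, Psmb10 and Psmb8, none of them called. The direction of the immunoproteasome genes thus rested on which mice were included.

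**Figure D2:**
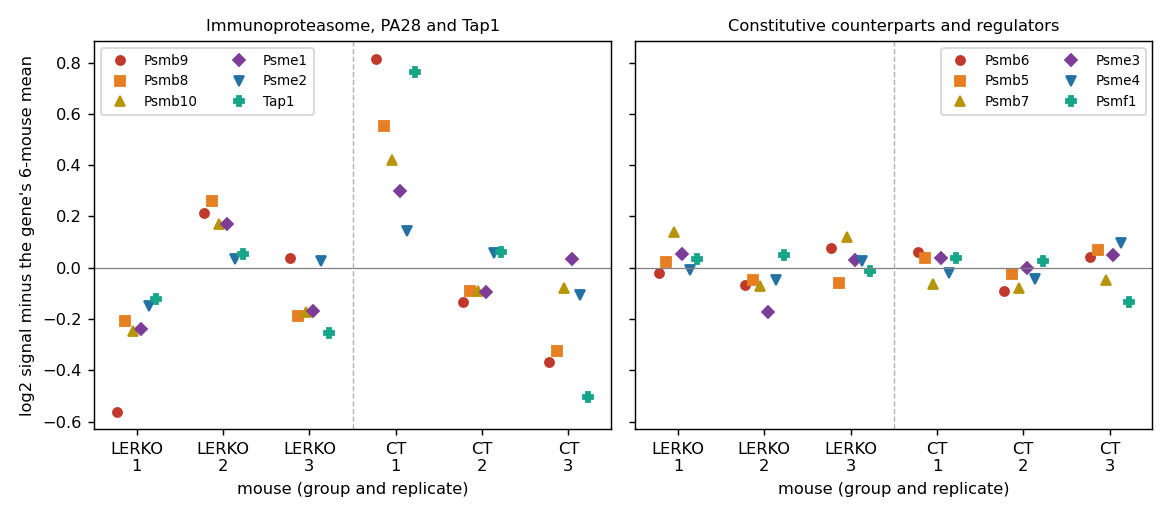
Log2 signal of single genes in each mouse (horizontal axis, 3 LERKO and then 3 CT mice), as the difference from the gene's mean over the 6 mice (vertical axis). Left, Psmb8, Psmb9 and Psmb10 with Psme1, Psme2 and Tap1, all highest in CT replicate 1. Right, Psmb5, Psmb6, Psmb7, Psme3, Psme4 and Psmf1 on the same scale, all closer to their means than Psmb8 and Psmb9 were in CT replicate 1.

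The spread between mice of the same group was wide for the immunoproteasome genes. The within-group SD, pooled over LERKO and CT mice, was 0.53 log2 units for Psmb9, 0.37 for Psmb8 and 0.26 for Psmb10. These values stood at the percentiles 97.8, 94.6 and 87.6 of all probe sets tested, whose median was 0.12. Psmb6, Psmb5 and Psmb7 stood at the percentiles 21.6, 5.73 and 25.2. Of the 29 core, base and lid genes, 26 lay below the median of all probe sets, as did 0 of the 3 immunoproteasome genes. Psmd1 was the base gene with an SD above 0.2. No test was made of this difference in spread.

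**Figure D3:**
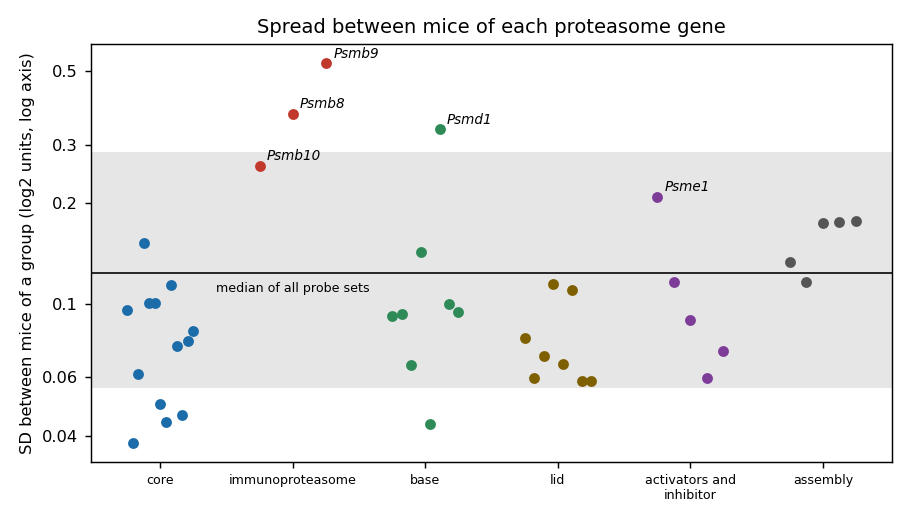
SD between mice of a group, pooled over LERKO and CT mice (vertical log axis, log2 units), of the proteasome genes tested in each particle group. Each point is 1 gene, genes above 0.2 are named, the line is the median of all 10633 probe sets (0.12) and the grey band runs from their 10th to their 90th percentile. Core and lid genes lie mostly below the line, and Psmb8, Psmb9 and Psmd1 lie above the band.

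Psmb9 and Psmb8 lie close together in the MHC on chromosome 17, and Psmb9 shares the stretch between its start and the next start with Tap1, a subunit of the transporter that carries the peptides made by the proteasome into the endoplasmic reticulum. Tap1, singled out for this position after its values were seen, was at 7.59, 7.76 and 7.45 in LERKO livers and at 8.47, 7.77 and 7.21 in CT livers. It was highest in CT replicate 1, as Psmb9 was, while LERKO replicate 2 was level with CT replicate 2. The sequence between the starts of both genes is shown because its neighbours were among the genes that differed most between mice, with Tap1 at the percentile 96.8 of within-group SD. It runs over 225 bases at chr17:34187331-34187555 (GRCm38.p6, RefSeq), here on the strand of Tap1, so that Psmb9 starts to its left and Tap1 to its right. Capitals mark a CCAAT box and a GC box (GGGCGG, here on the other strand).
Psmb9 to Tap1: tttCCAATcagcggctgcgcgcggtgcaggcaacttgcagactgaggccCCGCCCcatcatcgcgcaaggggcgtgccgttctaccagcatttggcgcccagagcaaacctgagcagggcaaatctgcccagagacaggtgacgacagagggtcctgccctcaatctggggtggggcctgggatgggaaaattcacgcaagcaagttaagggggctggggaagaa
Each of the following stretches is shown for the letters of a known factor beside a gene described here. For Psmb8 the capitals mark TTC, any 3 bases, then GAA, the letters bound by STAT factors, at chr17:34198075-34198134 on the plus strand, 120 to 61 bases before the start. For Psme1, a subunit of an activator induced by interferon, they mark on the other strand GAAA, any 2 bases, then GAAA, the core of the interferon-stimulated response element, within the first 30 transcribed bases at chr14:55578494-55578523 on the plus strand. For Psmb5 they mark TGAC, any 3 bases, then GC, the core of the antioxidant response element that Nfe2l1 and Nfe2l2 bind, at chr14:54618016-54618075 on the minus strand, 80 to 21 bases before the start.
Psmb8: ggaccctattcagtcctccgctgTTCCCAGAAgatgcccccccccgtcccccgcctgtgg
Psme1: gagctgtgcTTTCGCTTTCccttcccgctg
Psmb5: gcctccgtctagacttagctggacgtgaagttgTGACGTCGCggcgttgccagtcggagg

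Promoter windows from 250 bases before to 50 bases after the start were found for 41 of the 49 genes, in 45 windows, and 7 motifs were searched on both strands beside 32851 windows of mouse genes. The letters of the full estrogen response element (GGTCA, any 3 bases, then TGACC) were in 0 of the 45 windows and in 0.07% of all windows. The antioxidant response element core was in 13.3% of the members' windows and in 12.4% of all, at Psmb5, Psmb6, Psmc6, Psmd12, Psmd9 and Psme4. The core of the interferon-stimulated response element was in 11.1% and 3.44%, at Psmb3, Psmd4, Psmd9, Psme1 and Psmg4, and the STAT letters were in 6.67% and 8.3%, at Psmb8, Psmd2 and Psmg1. The ETS site CCGGAAG was in 37.8% of the members' windows and in 8.86% of all, the GC box in 53.3% and 35.7%, and the CCAAT box in 35.6% and 37.4%. The estrogen and antioxidant motifs share the letters TGAC and can overlap, as can the interferon and STAT motifs, which share GAA. These matches describe letters and not bound sites, and no test was made of these shares. The window of Psmb9 held the GC box and the CCAAT box and no match to the other 5 motifs.

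The markers of leukocytes were on average also highest in CT replicate 1, but they were not lowest in the same mice. Of 14 leukocyte markers, 8 were kept, and 6 of the 8 were highest in CT replicate 1, as Psmb8, Psmb9 and Psmb10 were. Lyz2 was highest in CT replicate 3 and Cd79b in LERKO replicate 1. Of these 8, 2 reached a signal of 100 in 1 array only, Ptprc in CT replicate 1 and Cd79b in LERKO replicate 1. Of all 14, those below the filter included, 9 were highest in CT replicate 1, and the share of all probe sets highest there was not counted. Relative to their 6-mouse mean all 14 markers, those below the filter included, lay at 0.04, 0.04 and −0.25 log2 units in LERKO livers and at 0.36, −0.25 and 0.06 in CT livers. The 3 immunoproteasome genes lay at −0.34, 0.22 and −0.11 in LERKO livers and at 0.59, −0.11 and −0.26 in CT livers. CT replicate 1 was the highest by either measure. The lowest mice were LERKO replicate 3 and CT replicate 2 for the markers, and LERKO replicate 1 and CT replicate 3 for the immunoproteasome genes. LERKO replicate 2 was second for the immunoproteasome genes, while for the 14 markers CT replicate 3 and LERKO replicates 1 and 2 were close together in that place. The summed linear signal of the 14 markers was between 2568 and 3574 in LERKO livers and between 2692 and 4259 in CT livers. Cd3e, Cd3g, Cd79a, Ms4a1, Nkg7 and Coro1a, which mark T cells, B cells, natural killer cells and leukocytes in general, stayed below a signal of 100 in every array. The 10 Kupffer cell markers, those below the filter included, lay at 0.06, 0.09 and −0.12 in LERKO livers. In CT livers they lay at 0.12, −0.34 and 0.19, with CT replicate 3 the highest. The part of leukocytes in the immunoproteasome values was not tested, and in whole liver fewer cells of a type and less RNA per cell cannot be told apart.

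Most of the listed genes of antigen processing and of the interferon response, proteasome genes aside, were highest in the same mouse. Of 23 such genes listed, 18 were kept, of which 5 were higher and 13 lower in LERKO liver, with a median log2 fold change of −0.12 against −0.0099 over all probe sets, and 0 had an unadjusted p under 0.05. CT replicate 1 was highest for 12 of the 18. Relative to the 6-mouse mean all 20 genes lay at −0.14, 0.07 and −0.07 in LERKO livers and at 0.26, 0.06 and −0.19 in CT livers. CT replicate 1 was thus high and CT replicate 3 low, with the LERKO mice between them. The 5 genes of smallest p were Irf7, a transcription factor of the interferon response, at a log2 fold change of −0.26, Ifit1 at 0.23, the guanylate-binding protein Gbp2 at −0.46, the peptide-loading chaperone tapasin (Tapbp) at −0.15 and Irf9 at −0.14 (adjusted p between 0.709 and 0.815 in limma). The kept genes that were highest in other mice included Ifit1 (LERKO replicate 3), Ifit3 (LERKO replicate 2) and B2m (LERKO replicate 1). Stat2 and Gbp2 were highest in CT replicate 2 and Irf7 in CT replicate 3. Irf1 and Nlrc5, transcriptional activators of the MHC class I pathway that were named for this role after their values were seen, were highest in CT replicate 1. Irf1 was at 7.73, 7.99 and 7.93 in LERKO livers and at 8.47, 8.01 and 7.59 in CT livers. Nlrc5 was at 8.55, 8.70 and 8.53 in LERKO livers and at 9.18, 8.97 and 8.37 in CT livers. B2m, the light chain of MHC class I, was at 12.93, 12.90 and 12.87 in LERKO livers and at 12.87, 12.88 and 12.82 in CT livers, a span of 1.08-fold.

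The regulatory particle leaned upward in LERKO liver by an amount within the spread between mice. Of the 16 base and lid genes tested, 14 were higher in LERKO liver, with a median log2 fold change of 0.07, while 46.5% of all probe sets were higher. None was called. The lean was largest in 1 mouse. Averaged over the 16 genes, the livers lay at 0.10, −0.03 and 0.02 log2 units from the 6-mouse mean in LERKO mice and at −0.03, −0.02 and −0.05 in CT mice, so that LERKO replicate 2 lay among the CT mice. LERKO replicate 1 was the highest mouse for 10 of the 16 genes. Without it 12 of the 16 were higher, with medians of 0.03 for the base and 0.03 for the lid, against 0.07 and 0.07 with all mice. LERKO and CT mice did not overlap for 5 of the 43 proteasome genes, all higher in LERKO liver. These were the core genes Psma2 and Psmb1, the base genes Psmc1 and Psmc3 and the lid gene Psmd3. Over all probe sets 5.91% lay higher and 7.13% lower without overlap, 13.0% in all. The 5 of 43, or 11.6%, were thus close to the share for either direction and above the share that lay higher. No test was made of these shares.

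**Figure D4:**
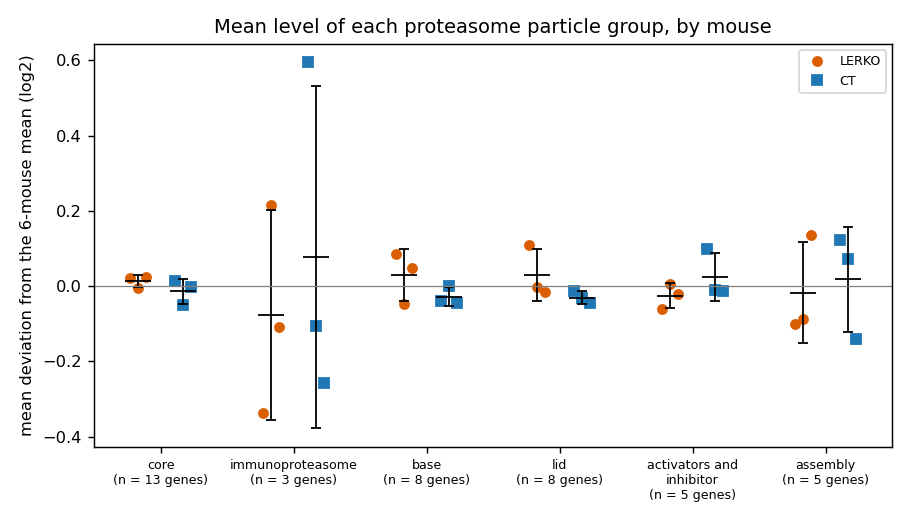
Mean deviation of the genes of each particle group from their 6-mouse mean (vertical axis, log2 units), 1 point per mouse, LERKO left and CT right in each group, with the mean and SD of 3 mice as bars. Base and lid are highest in LERKO replicate 1, the immunoproteasome spans −0.34 to 0.59, and LERKO and CT mice overlap in all 6 groups.

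Of the 8 base genes tested, 7 were higher in LERKO liver. Psmc3, an ATPase, was at 7.59, 7.73 and 7.60 in LERKO livers and at 7.54, 7.49 and 7.46 in CT livers. Psmc1, also an ATPase, was at 8.66, 8.55 and 8.80 in LERKO livers and at 8.48, 8.52 and 8.55 in CT livers. All LERKO mice lay above all CT mice for both, narrowly so for Psmc1, with log2 fold changes of 0.14 (SE 0.07, adjusted p = 0.738 in limma) and 0.15 (SE 0.08, adjusted p = 0.747 in limma). For Psmc1 the order was lost when the arrays were normalized again by median centring, quantiles or cyclic loess, and when its probe sets were averaged. Psmd2, a scaffold of the base that docks ubiquitin-binding proteins, was at 9.77, 9.58 and 9.56 in LERKO livers and at 9.53, 9.42 and 9.57 in CT livers. Psmd4, a ubiquitin receptor, was at 8.42, 8.17 and 8.28 in LERKO livers and at 8.27, 8.23 and 8.17 in CT livers. The groups overlapped for both, with LERKO replicate 1 the highest mouse and log2 fold changes of 0.13 (SE 0.09) and 0.07 (SE 0.08). The gene that went the other way, Psmd1, a scaffold of the base, had a log2 fold change of −0.15 (SE 0.22). It was at 9.99, 9.69 and 9.96 in LERKO livers and at 9.74, 10.54 and 9.82 in CT livers, so the difference lay in CT replicate 2. Psmc2, Psmc4 and Psmc6 had log2 fold changes of 0.02, 0.07 and 0.02, and the sixth ATPase, Psmc5, stayed below a signal of 100, at 6.42, 6.31 and 6.34 in LERKO livers and at 6.45, 6.35 and 6.28 in CT livers.

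Of the 8 lid genes, 7 were also higher in LERKO liver. Psmd3, a structural subunit, had the smallest p of the 43 genes. It was at 8.46, 8.30 and 8.32 in LERKO livers and at 8.24, 8.21 and 8.18 in CT livers, with a log2 fold change of 0.15 (SE 0.07, adjusted p = 0.722 in limma, and 0.585 or more in the alternatives tried). All LERKO mice lay above all CT mice for Psmd3, also in each of the alternatives. Psmd13 was at 7.87, 7.79 and 7.78 in LERKO livers and at 7.72, 7.62 and 7.78 in CT livers. Psmd7, which pairs with the deubiquitinase of the lid, was at 9.11, 8.97 and 9.03 in LERKO livers and at 9.01, 8.92 and 8.93 in CT livers. For both, 1 CT mouse reached into the LERKO values, and the log2 fold changes were 0.11 (SE 0.07) and 0.08 (SE 0.07). Psmd11, the lid gene that went the other way, was at 9.10, 8.95 and 9.02 in LERKO livers and at 9.18, 9.05 and 9.04 in CT livers, with a log2 fold change of −0.07 (SE 0.08). Psmd14, the deubiquitinase itself, had a log2 fold change of 0.07 (95% confidence interval −0.15 to 0.30), and Psmd6, Psmd8 and Psmd12 had 0.07, 0.04 and 0.04.

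The activators showed the immunoproteasome's pattern in part. Psme1 and Psme2 form the interferon-induced activator PA28, which opens the gate of the core. Psme1 was at 8.61, 9.02 and 8.68 in LERKO livers and at 9.14, 8.75 and 8.88 in CT livers. Psme2 was at 9.96, 10.15 and 10.14 in LERKO livers and at 10.26, 10.17 and 10.01 in CT livers. CT replicate 1 was the highest mouse for both, and LERKO replicate 2 came second for Psme1 but not for Psme2. Their log2 fold changes were −0.16 (SE 0.15, adjusted p = 0.826 in limma) and −0.06 (SE 0.09, adjusted p = 0.902 in limma), with spans over the 6 mice of 1.45-fold and 1.22-fold. A probe set that Psme2 shares with the near-identical Psme2b lay between 7.94 and 8.28 in LERKO livers and between 8.03 and 8.28 in CT livers, and the signal of such copies cannot be told apart.

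The regulators outside the interferon response were steadier. Psme3, the nuclear relative of PA28, was at 9.28, 9.05 and 9.25 in LERKO livers and at 9.26, 9.22 and 9.27 in CT livers. Psme4, which encodes the activator PA200, was at 8.75, 8.71 and 8.79 in LERKO livers and at 8.74, 8.72 and 8.86 in CT livers. Psmf1, which encodes the inhibitor PI31, was at 8.83, 8.85 and 8.78 in LERKO livers and at 8.83, 8.82 and 8.66 in CT livers. The groups overlapped for all 3, with log2 fold changes of −0.06 (SE 0.08), −0.02 (SE 0.07) and 0.05 (SE 0.07), and spans of 1.17-fold, 1.11-fold and 1.14-fold.

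Assembly chaperones did not differ between the groups beyond their spread, and 4 of the 5 tested were on the lower side of 0 in LERKO liver. Psmg1, a chaperone of the alpha ring, was at 7.33, 7.59 and 7.66 in LERKO livers and at 7.68, 7.65 and 7.36 in CT livers. Psmg4, also a core chaperone, was at 7.36, 7.22 and 7.49 in LERKO livers and at 7.58, 7.53 and 7.20 in CT livers. LERKO replicate 3 lay with CT replicates 1 and 2 for both, and CT replicate 3 lay near the lowest LERKO mouse. The base chaperone Psmd10, also known as gankyrin, was at 6.84, 6.76 and 7.03 in LERKO livers and at 6.93, 7.02 and 6.77 in CT livers. Psmd5, another base chaperone, was at 7.77, 7.75 and 7.99 in LERKO livers and at 7.97, 7.77 and 7.85 in CT livers. Their log2 fold changes lay between −0.08 and −0.03, and that of Psmd9, the third base chaperone, was 0.0019. Averaged over the 5 genes, the livers lay at −0.10, −0.09 and 0.14 log2 units in LERKO mice and at 0.12, 0.07 and −0.14 in CT mice. The groups thus overlapped fully, with 3 mice high and 3 low. Psmg2 and Psmg3 stayed below a signal of 100.

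The partners of the proteasome also lay near 0 in the comparison. Of 23 genes kept from a list of ubiquitin receptors, shuttle factors, proteasome-bound enzymes and regulators, 14 were higher and 9 lower in LERKO liver, with a median log2 fold change of 0.03, and 0 had an unadjusted p under 0.05. The 5 of smallest p were led by Nfe2l1, the transcription factor that raises proteasome gene transcription when the proteasome is impaired. Nfe2l1 was at 8.99, 9.05 and 9.27 in LERKO livers and at 8.95, 8.89 and 9.01 in CT livers, with a log2 fold change of 0.15 (SE 0.09, adjusted p = 0.758 in limma). LERKO replicate 1 lay just below CT replicate 3, so the groups overlapped. The other 4 were Txnl1, a thioredoxin-like protein bound to the proteasome, at −0.12, the deubiquitinase Uchl5 at 0.14, the unfolding ATPase Vcp at 0.08 and the ubiquilin Ubqln4 at 0.08. Pomp, the maturation factor of the core, was named for its role and had 0.03 (SE 0.08).

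The 6 genes that did not reach a signal of 100 in any array were Psmc5, Psmg2, Psmg3, Psma8, Psmb11 and Psmc3ip. Psma8 is the alpha subunit of the testis and Psmb11 the beta subunit of the thymic cortex. Psma8 was at 3.27, 3.27 and 3.61 in LERKO livers and at 3.02, 3.08 and 3.17 in CT livers, and Psmb11 was at 4.02, 3.79 and 3.81 in LERKO livers and at 3.99, 3.94 and 4.07 in CT livers, in the range of signals that the filter removes. Psmc3ip, a recombination factor, and Psme3ip1 share a name with a subunit without being one. Psme3ip1 was kept and had a log2 fold change of 0.07 (SE 0.08).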

How the data were processed

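Liver RNA of 3 LERKO and 3 CT females was measured on Affymetrix Mouse Gene 1.1 ST arrays. The authors made the deposited log2 signals with the robust multichip average (RMA), which corrects background, normalizes by quantiles and summarizes the probes of a probe set. The version is not given in the sources used here. Quantile normalization forces 1 distribution on all arrays, so a shift shared by all genes would not be seen. Probe sets at a signal of 100 (6.64 on the log2 scale) in at least 1 array were kept, 10633 of 35556. LERKO was compared with CT by limma 3.58.1 in R 4.3.3, two-sided, and p-values were adjusted by Benjamini-Hochberg over the 10633 probe sets. The test was checked on simulated data with changes larger than those of the proteasome genes, so the check does not cover changes of this size. Groups came from the labels. Values in every mouse were given for the proteolytic subunits, the regulators and the up to 4 genes of smallest p in each particle. Up to 5 genes of smallest p were named per pathway list. Some other genes given in every mouse, among them Psmd1 and B2m, lay outside this rule. The members and the lists were chosen with earlier results of these data known. Promoter sequences came from RefSeq (GRCm38.p6). Alternatives covered the filter, the variance model, normalization, the probe set per gene, the replicate block and leaving out arrays.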

Additional observations from a re-analysis of the deposited data

How the results depend on the processing

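Called proteasome genes numbered 0 under all 20 alternatives. Over all probe sets, 3 were called where a signal of 100 was required in all 6 arrays and 1 with a trend in limma, with 0 to 1 when a replicate was left out. Proteasome genes higher at an unadjusted p under 0.05 numbered 1 without a filter (Psma8), 1 with array weights (Psma6), 1 in the methods' t-test (Psma2) and 0 to 1 with a replicate left out (Psmb7 without LERKO replicate 2, Psma6 without CT replicate 2). Genes lower numbered 0 to 1 (Psma5 without CT replicate 2). Genes without overlap numbered 6 to 11 with a replicate left out, beside 19.7% to 29.1% of all probe sets. They numbered 18 of 43 without CT replicate 3 and LERKO replicate 2 (44.0% of all) and 13 without CT replicate 1 and LERKO replicate 2 (36.8% of all), a pair left out after seeing the data. With a replicate left out, the median log2 fold change lay between −0.025 and 0.046 for the core and between −0.087 and −0.0023 for the activators and inhibitor. Without CT replicate 1 and LERKO replicate 2 it was 0.067 for the core and 0.12 for the base.

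Of named genes, some changed sign. Psmb6 was at 0.0032 with median centring, 0.0054 with cyclic loess, 0.041 without CT replicate 3 and LERKO replicate 2 and 0.052 without CT replicate 1 and LERKO replicate 2. Without CT replicate 3 and LERKO replicate 2, Psme3 was at 0.023, Psme4 at 0.041, Psmf1 at −0.020 and Psmd5 at 0.0067. Without CT replicate 1 and LERKO replicate 2, Psmb8 was at 0.011, Psme3 at 0.017, Psmd11 at 0.016, Psmg4 at 0.062, Psmd10 at 0.039 and Psmd5 at 0.064. With a replicate left out, the range was −0.055 to 0.023 for Psmb6, −0.27 to 0.16 for Psmb8, −0.44 to 0.15 for Psmb9, −0.29 to 0.0033 for Psmb10, −0.10 to 0.013 for Psme3, −0.050 to 0.022 for Psme4, −0.0072 to 0.078 for Psmf1, −0.14 to 0.061 for Psmg1, −0.11 to 0.027 for Psmd10 and −0.10 to 0.023 for Psmd5. The cause was not tested. Psmb9 has no value where a signal of 100 was required in all 6 arrays, since it missed that filter. With the replicate number as a block, 0 proteasome genes were called and 5 did not overlap, as without it. LERKO and CT mice of the same number had deviations that correlated at −0.157, −0.073 and −0.137, so no pairing by number was seen in these values. They cannot exclude a pairing, and the labels do not say whether the mice were paired. Esr1 had an adjusted p of 0.0409 with a signal of 100 in all 6 arrays and of 0.0485 with a trend.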
